A study of Drosophila melanogaster with 2 samples.

Results

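ChIP-seq of whole Drosophila melanogaster embryos gave peaks of tramtrack binding, and the peaks described here are those that passed the authors' threshold in only 1 of the 2 biological replicates. The peaks were chosen by the deposited thresholded lists: on the assembled chromosomes (both arms of 2 and 3, with 4, X and Y), a peak of one replicate was kept if it overlapped by 1 bp or more no thresholded peak of the other. This kept 1889 of the 6177 thresholded peaks, namely 1019 of 3201 in replicate 1 (31.8%) and 870 of 2976 in replicate 2 (29.2%). The remaining 2182 peaks of replicate 1 and 2106 of replicate 2 overlapped each other and are called shared peaks below. Both libraries belong to 1 group. The embryos were 0 to 24 h old and came from the ttk-GFP strain, which carries an insertion with ttk fused to eGFP, chromatin was sonicated to 200 to 800 bp, and precipitation used an antibody against GFP, per the labels, whose antibody field names ttk. No promoter that drives the fusion is named in the labels. A whole embryo holds many cell types, so few bound cells and weak binding in many cells cannot be told apart in these peaks. Control libraries were not analysed here, and the depth of each library is unknown because the files hold no read counts.

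Tramtrack is a zinc-finger protein with a BTB domain, through which such proteins pair with each other and with partner proteins. It is known as a transcriptional repressor that holds back neuronal fate and shapes epithelia and tracheal tubes, and one of its isoforms binds sequences with the core AGGAC. Other proteins read some of the sequences that occur below: BEAF-32, an insulator protein, binds CGATA; DREF, an activator of housekeeping and replication genes, binds TATCGATA; the GAGA factor binds runs of GAGAG; M1BP binds the promoter element that holds GTCACACT; and CTCF, another insulator protein, binds a site with GGTGGCGC at its core. Motif names in what follows are names of letters in the DNA, not of bound proteins.

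The sequences around strong members of each set are shown because the sets are compared by their bases below. Each line gives the gene with the nearest protein-coding transcription start site (TSS), dm6 coordinates and the plus strand within 50 bp of the summit, with bases from NCBI's sequence of dm6. Capitals mark matches on either strand to AGGAC or to CGATA, and likewise to GAGAGA and to GTCACACT, as well as to CACCCC or GGTGGCGC. The first lines are members thresholded only in replicate 1: 4 of the strongest sites and 1 site chosen after its values were seen to show CACCCC.
Site near Su(Tpl), chr3L:19903220-19903320: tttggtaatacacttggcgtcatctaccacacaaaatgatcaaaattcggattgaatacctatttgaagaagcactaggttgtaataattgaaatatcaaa
Site near Pex11c, chr3R:23258230-23258330: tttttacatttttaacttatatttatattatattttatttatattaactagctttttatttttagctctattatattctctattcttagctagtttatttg
Site near Vps33B, chr3R:25473288-25473388: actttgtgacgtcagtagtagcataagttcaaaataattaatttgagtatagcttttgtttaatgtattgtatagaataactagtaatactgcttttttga
Site near CG8745, chr3L:13862550-13862650: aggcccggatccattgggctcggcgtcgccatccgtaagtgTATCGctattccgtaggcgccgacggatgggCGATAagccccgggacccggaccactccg
Site near CG32425, chr3L:20508284-20508384: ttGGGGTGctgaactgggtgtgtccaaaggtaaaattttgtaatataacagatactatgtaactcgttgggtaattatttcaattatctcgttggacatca
The next lines are members thresholded only in replicate 2: 3 of the strongest sites and 2 sites chosen after their values were seen, a strong one with TATCGATA and a strong one with AGGAC.
Site near CG18428, chr3R:24109178-24109278: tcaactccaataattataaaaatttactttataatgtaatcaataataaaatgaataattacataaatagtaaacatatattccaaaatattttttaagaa
Site near dco, chr3R:31061490-31061590: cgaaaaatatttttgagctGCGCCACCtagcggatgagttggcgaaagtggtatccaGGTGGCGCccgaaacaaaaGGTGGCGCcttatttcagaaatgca
Site near Dmtn, chr3R:6404363-6404463: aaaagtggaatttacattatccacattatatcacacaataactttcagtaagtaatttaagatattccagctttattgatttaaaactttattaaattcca
Site near Rnp4F, chrX:5322662-5322762: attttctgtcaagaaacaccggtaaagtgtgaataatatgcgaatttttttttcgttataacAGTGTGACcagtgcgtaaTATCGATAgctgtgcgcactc
Site near mask, chr3R:24230457-24230557: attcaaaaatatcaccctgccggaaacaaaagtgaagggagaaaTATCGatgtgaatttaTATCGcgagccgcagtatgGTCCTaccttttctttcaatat

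The window at dco, which encodes a casein kinase 1, held GGTGGCGC 3 times within 50 bp of the summit. The window at Rnp4F, with its summit 16 bp upstream of the TSS, held both GTCACACT and TATCGATA. The windows at Pex11c, CG18428 and Dmtn were made up mostly of A and T and held none of the 6 marked motifs. The window at CG8745 was rich in G and C and held CGATA on both strands.

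Most peaks that passed in only 1 replicate were weaker than the shared peaks, and most had a summit within 150 bp in the other replicate's full ranked list. Within 50 bp, 44.8% of the replicate 1 only and 58.6% of the replicate 2 only peaks had one. The signal is the authors' value for a peak. Its median was 57.5 in the replicate 1 only set (quartiles 50.2 and 68.5, n = 1019) against 95.2 in the shared peaks of replicate 1. In the replicate 2 only set it was 50.2 (quartiles 43 and 61.4, n = 870) against 88.9 in the shared peaks of replicate 2. These signals lie behind the scores that chose the peaks, so they are a description and carry no test.

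A ranked summit of the other replicate lay within 150 bp of 744 of the 1019 replicate 1 only peaks (73%, exact 95% Clopper-Pearson interval 70.2 to 75.7) and of 770 of the 870 replicate 2 only peaks (88.5%, 86.2 to 90.5). All intervals given here cover counting error only, and peaks of 1 library are not replicates. Over all ranked peaks, most of them far weaker, the same was true of 51.2% of the 91354 of replicate 1 and 40.3% of the 114366 of replicate 2. Among shared peaks the counts were 2113 of 2182 and 2099 of 2106. The counterpart was weaker in the other replicate as a rule. Its median signal was 30.3 in replicate 2 for the replicate 1 only set and 38.4 in replicate 1 for the replicate 2 only set. The median log2 ratio of own to other signal was 0.97 ± 0.82 (SD, n = 744) and 0.52 ± 0.69 (SD, n = 770), beside 0.14 and -0.14 in the shared peaks, and the 2 lists may be scaled differently. In 41 replicate 1 only peaks (5.51%) and 133 replicate 2 only peaks (17.3%) the counterpart had the higher signal. Among shared peaks with a counterpart this share was also lower for replicate 1 (37.2%) than for replicate 2 (62.8%).

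**Figure D1:**
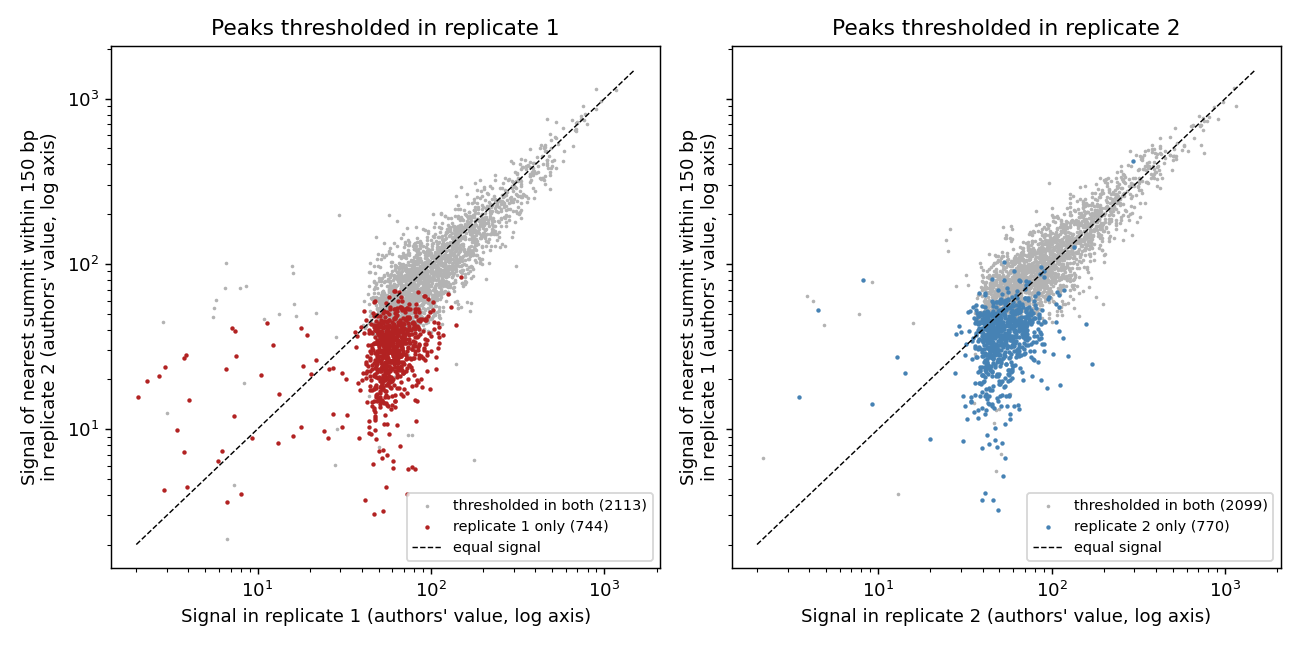
Signal of each thresholded peak in its own replicate (horizontal, log axis) and of the nearest summit within 150 bp in the other replicate (vertical, log axis), both the authors' values, with shared peaks in grey and peaks thresholded in only 1 replicate in colour. The coloured points lie at the low end of the grey cloud and mostly below the line of equal signal, with median log2 ratios of 0.97 on the left and 0.52 on the right.

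The counterparts spread over the whole range of scores below the threshold, and most were not near it. The deposited lists are called IDR (irreproducible discovery rate) thresholded, so the score is read as a measure of reproducibility, not of peak strength. The lowest score in the thresholded lists was 830 and the highest was 1000. The median counterpart score was 181 for the replicate 1 only set and 262 for the replicate 2 only set. With limits of 100 and 540 chosen after seeing the scores, 302 counterparts of the replicate 1 only set (40.6%) and 262 of the replicate 2 only set (34%) scored under 100. Another 162 (21.8%) and 217 (28.2%) scored at least 540. The rule leaves out peaks that overlap a thresholded peak of the other replicate, so few counterparts could reach 830. None of the 744 counterparts of the replicate 1 only set reached 830, while 2 of the 770 of the replicate 2 only set did.

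Those 2 exceptions had full scores in both replicates. At the promoter of CG18428 (3R:24109162-24109338, 108 bp upstream of the TSS) the signal was 294 in replicate 2 and 420 in replicate 1, with a score of 1000 in both ranked lists, yet the replicate 1 peak was absent from the thresholded list of replicate 1. It was also in neither of the thresholded lists the authors made from both replicates. In an intron of Dmtn (3R:6404390-6404463) the signal was 134 in replicate 2 and 127 in replicate 1, again with scores of 1000. Why these peaks left the thresholded list was not tested.

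**Figure D2:**
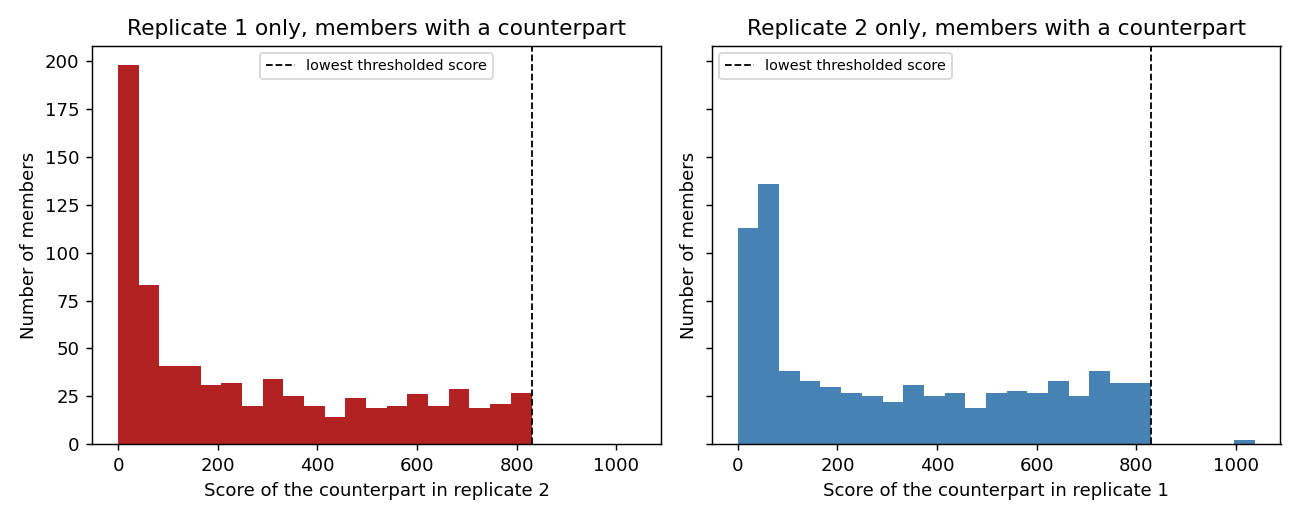
Number of peaks (vertical) by the score of their counterpart in the other replicate's ranked list (horizontal), for the 744 replicate 1 only and 770 replicate 2 only peaks that have one; the dashed line is the lowest thresholded score, 830. The lowest scores are the most frequent, and the 2 peaks past the line in the right panel are the sites at CG18428 and Dmtn. The rule that chose the peaks leaves few counterparts that could lie past the line.

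The authors' lists made from both replicates took up many of these peaks, but a smaller share than of the shared peaks. Their conservative list overlapped 460 of the replicate 1 only peaks (45.1%, 42.1 to 48.3) and 534 of the replicate 2 only peaks (61.4%, 58.1 to 64.6). Of the shared peaks it overlapped 98.9% in replicate 1 and 99% in replicate 2. Their larger list overlapped 821 (80.6%) and 664 (76.3%), beside 99.5% and 99.6% of shared peaks. In neither list were 183 (18%) and 169 (19.4%), with median own signals of 49.9 and 42, beside 0.412% and 0.285% of shared peaks. Of the peaks with no counterpart, the conservative list held 48 of 275 in replicate 1 and 13 of 100 in replicate 2, and the larger list 166 and 25. These lists were made from the same reads, so they are not independent support.

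The strongest peak thresholded only in replicate 1 lay at an intronic site where the annotated spans of Su(Tpl), which encodes an elongation factor for RNA polymerase II, and Mi-2, a chromatin remodeller gene, overlap (3L:19903186-19903377). Its signal was 257 in replicate 1, rank 178 of 3203, and no ranked summit of replicate 2 lay within 150 bp. This peak was 192 bp wide, while 1009 of the 1019 peaks of the set had the full width of 330 bp. At the promoter of Pex11c, a peroxisome gene, the signal was 177 (3R:23258115-23258444) and at that of Vps33B, a vesicle-tethering gene, 160 (3R:25473173-25473502), both with no counterpart. The peaks at Su(Tpl) and Vps33B were nevertheless in both lists made from both replicates, while that at Pex11c was in neither. Of the 15 strongest peaks of this set, 13 had no counterpart. They included intronic sites of InR, the insulin receptor gene (149), and Tlk, the Tousled-like kinase gene (154), and a promoter site of app, which encodes a palmitoyltransferase (145). The other two were at promoters: Pde6, a phosphodiesterase gene, with 148 in replicate 1 and 83 in replicate 2, and CalpB, a calpain gene, with 140 and 42.6.

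Of the 15 strongest peaks thresholded only in replicate 2, 12 had a counterpart in replicate 1. Several of the 15 were narrow, such as those at CG18428 (177 bp) and rl (116 bp). Of the whole set, 856 of 870 peaks had the full width of 276 bp. After CG18428 came an intron of rl, which encodes the ERK kinase of the Ras pathway (2R:1097867-1097982), with 170 in replicate 2 and 24.9 in replicate 1. At dco (3R:31061482-31061604) the signals were 157 and 43.5. At the promoter of Rtnl1, a reticulon gene, they were 124 and 27.9 (2L:4999678-4999953). At Atg9, which encodes an autophagy membrane protein, they were 118 and 69.3. The promoter of BEAF-32, the insulator protein gene, had 110 and 65.1 (2R:14770265-14770540), and that of the ribosomal protein gene RpL28 had 107 and 67.4. A replicate 1 only peak of 50.4 also lay at the RpL28 promoter, with its summit 263 bp away. No counterpart within 150 bp was found at the promoter of CG7737 (131), in an intron of Diap1, which encodes an inhibitor of apoptosis (113), or at an intronic site within the annotated span of lncRNA:flam (114), where the nearest protein-coding TSS was that of DIP1. The nearest ranked summit of replicate 1 lay just past that limit at CG7737 (181 bp) and Diap1 (163 bp), and 1950 bp away at the lncRNA:flam site.

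A high signal in the other replicate did not always go with a high score there. In an intron of raw, the replicate 2 only peak had a signal of 53.3, and its counterpart in replicate 1 had 102 with a score of 37. In an intron of shn, which encodes a zinc-finger protein of BMP signalling, the signals were 86.5 and 95.7, the second with a score of 38. At the promoter of RpS7 the replicate 1 only peak had 61.4, and its counterpart in replicate 2 had 69 with a score of 421. In an intron of msn, a kinase gene, a replicate 1 only peak of 83.8 met a counterpart of 67.2 with a score of 829, just under the lowest thresholded score.

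At the edge of the rule, 5 replicate 1 only and 7 replicate 2 only peaks ended within 50 bp of a thresholded peak of the other replicate, and 64 and 74 within 500 bp. Just inside were a replicate 1 only peak at egh with a gap of 4 bp (signal 14.4) and a replicate 2 only peak at Nt5b with a gap of 6 bp (40.9). Just outside were the peaks at ttk itself: that of replicate 1 (3R:31721992-31722321) had a signal of 88, that of replicate 2 (3R:31721719-31721994) had 36.8, and they overlapped by 3 bp. A replicate 1 only peak had a replicate 2 only summit within 500 bp in 10 cases. At Tlk on X these were 81.1 in replicate 1 and, 407 bp away, 51.4 in replicate 2. At ftz-f1, a nuclear receptor gene, they were 69.8 and 57.4, with summits 416 bp apart.

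Summits of both sets lay mainly at promoters (within 500 bp of a TSS of any transcript) and in introns, with small differences from shared peaks. Promoters held 391 replicate 1 only summits (38.4%, 35.4 to 41.4) and 381 replicate 2 only summits (43.8%, 40.5 to 47.2), beside 46.7% and 47.2% of shared summits. The order of the 2 sets turned among members without a counterpart, with 39.3% and 36%. Shared peaks that were as weak as the members, a subset chosen after seeing the data with own signal up to 68.5 and 61.4, the upper quartiles of the members, had 37.5% (n = 522) and 37.6% (n = 500) at promoters. Introns held 41.2% (38.2 to 44.3) of the replicate 1 only set and 32.9% (29.8 to 36.1) of the replicate 2 only set. Shared summits had 36.9% and 36.4% in introns, and the shared peaks as weak as the members had 41% and 41.8%. Intergenic sequence held 16.2% and 20.2%. Coding exons held 10 (0.981%) and 16 (1.84%), beside 2 and 4 shared summits. Promoter summits of the replicate 2 only set lay closer to the TSS, at a median of 90 bp against 155 bp in the replicate 1 only set and 134 and 130 bp in shared peaks. They lay upstream of the nearest protein-coding TSS in 83.4% and 76.7% of cases, respectively.

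**Figure D3:**
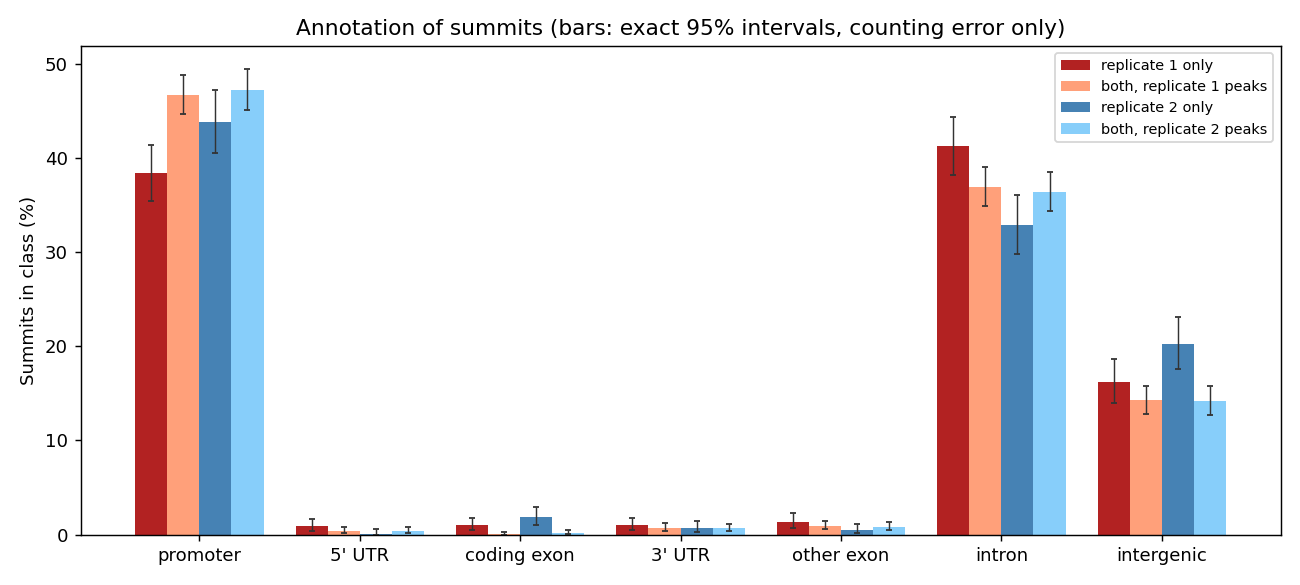
Share of summits (vertical, %) in each annotation class for peaks thresholded in only 1 replicate and shared peaks; bars give exact 95% intervals for counting error only. Promoters hold 38.4% of replicate 1 only and 43.8% of replicate 2 only summits, and introns 41.2% and 32.9%.

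Of 13968 protein-coding genes, 375 (2.68%) had a promoter summit of the replicate 1 only set and no other thresholded one, 463 (3.31%) one of the replicate 2 only set, and 1292 (9.25%) a shared one. A further 15 had one of each set and no shared one, among them Rho1, which encodes a small GTPase of the cytoskeleton, with 57.9 in replicate 1 and 43.9 in replicate 2. Of 93 cytosolic ribosomal protein genes, 38 had a shared summit, 10 a replicate 1 only summit and 8 a replicate 2 only summit. Another 1, RpL28, had one of each set. At RpL4 the signal was 103 in replicate 1 and 58.9 in replicate 2, and at RpL23 it was 86 in replicate 2 and 87.3 in replicate 1. Of 73 mitochondrial ribosomal protein genes, 11 were shared, 3 replicate 1 only and 6 replicate 2 only; a peak of 75 in replicate 1 lay between mRpS7 and Cdk1, a mitotic kinase gene, and is counted for both.

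Of 48 proteasome genes, 5 were in the replicate 2 only set, 0 in the replicate 1 only set and 1 shared. Rpn6, which encodes a subunit of the lid, had signals of 71 (replicate 2) and 32.4 (replicate 1), and Prosbeta1, a catalytic subunit gene, 59.6 and 24. Of 29 tracheal and epithelial genes, 5 were in the replicate 1 only set, 0 in the replicate 2 only set and 5 shared. At rib, which encodes a BTB protein needed for tube formation, the signal was 73.1 in replicate 1 and 4.05 in replicate 2. At cora, a septate junction gene, it was 63.6 and 38. At pyd, a junction scaffold gene, it was 65.3 in replicate 1 with no counterpart. These counts are small, and the lists were chosen with earlier results of these data known, so nothing is called particular to them.

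Cell cycle genes were in both sets, 3 of 37 in the replicate 1 only set, 5 in the replicate 2 only set and 4 shared. Mcm2, which encodes a subunit of the replicative helicase, had signals of 102 (replicate 2) and 28.3 (replicate 1). At dup, the replication licensing gene, the signals were 57.1 and 54.1, and the latter scored 786. At dap, a cyclin-dependent kinase inhibitor gene, they were 55 in replicate 1 and 24.2 in replicate 2. Among 29 segmentation and Hox genes, 3 were replicate 1 only, 1 replicate 2 only and 3 shared. At Dfd, a Hox gene, the signal was 66 in replicate 1 and 38.7 in replicate 2, and at slp1, a forkhead gene of segmentation, 65.5 and 17.8. The replicate 2 only summit was at hry, the pair-rule repressor gene, with 32.6 and 11.5.

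The other lists had few genes in either set. Of 20 Polycomb and corepressor genes, 2 were replicate 2 only and 5 shared: Su(z)12, a gene of the Polycomb complex that methylates histones, had 72.2 in replicate 2 and 37.8 in replicate 1, and Sfmbt had 57.1 and 26.8. Of 27 Notch pathway genes, 1 was replicate 2 only: mam, a coactivator gene, with 49.4 and 37.3. Of 25 EGF receptor and Ras pathway genes, 1 was replicate 2 only: aop, which encodes an ETS repressor, with 77.1 and 45.8. Of 22 muscle genes, 2 were replicate 2 only: mys, an integrin gene, with 49 and 41.6, and Act87E, an actin gene, with 42.9 and 34.6. Of 16 BTB transcription factor genes, 1 was replicate 1 only (rib), as was 1 of 19 ecdysone response genes, Hr78, with 50.4. Shared summits were at 4 of the Notch, 4 of the EGF receptor and Ras and 4 of the muscle genes. They were at 3 of the BTB and 3 of the ecdysone response genes, beside 9.25% of all protein-coding genes. Neither set had a promoter summit at any of 24 neuronal, 120 odorant and gustatory receptor or any cuticle protein gene of the list. A shared summit was at 1 of the neuronal genes and at no receptor or cuticle protein gene. Over all protein-coding genes the shares were 2.68% for the replicate 1 only set and 3.31% for the replicate 2 only set. With such low shares, an absence among 24 genes is not read as a result.

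The sets differed in base composition. The median GC content within 100 bp of the summit was 39.3% ± 10.4 (SD across 1019 windows) in the replicate 1 only set and 38.3% ± 8.05 (SD, n = 870) in the replicate 2 only set, beside 34.3% and 34.8% in shared peaks. Among members without a counterpart the order of the 2 sets turned, with medians of 40.8% and 41.5%. With a limit of 45% chosen after seeing the values, 358 replicate 1 only windows (35.1%, 32.2 to 38.2) and 196 replicate 2 only windows (22.5%, 19.8 to 25.5) lay above it, beside 10% and 9.35% of shared windows. In shared peaks as weak as the members, 15.7% and 15.8% lay above it. The distribution of the replicate 1 only set was broad with a shoulder above 45%. Of the windows above 45%, the conservative list held 122 of 358 (34.1%) in replicate 1 and 77 of 196 (39.3%) in replicate 2. Of the rest it held 338 of 661 (51.1%) and 457 of 674 (67.8%).

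**Figure D4:**
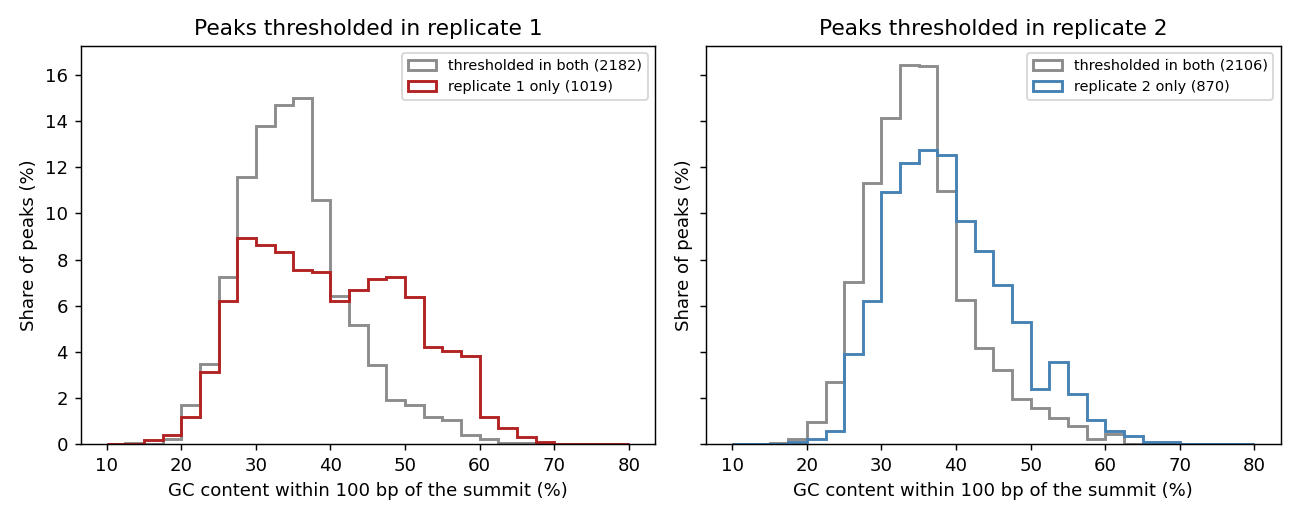
Share of peaks (vertical, %) by GC content within 100 bp of the summit (horizontal, %) in bins of 2.5 points, for shared peaks in grey and peaks thresholded in only 1 replicate in colour. The replicate 1 only set has 35.1% of its windows above 45% GC and the replicate 2 only set 22.5%, beside 10% and 9.35% of the shared windows.

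Motif content also differed between the sets. Matches on either strand were counted within 100 bp of the summit, in an equally wide window centred 500 bp towards lower coordinates, and in windows around 19275 protein-coding TSSs. CGATA was in 280 of 870 replicate 2 only windows (32.2%, 29.1 to 35.4) and in 210 of 1019 replicate 1 only windows (20.6%, 18.2 to 23.2), beside 25.8% and 25.9% of shared windows, 22.3% and 23% of the members' own flanks and 37.1% of TSS windows. TATCGATA, which contains CGATA, was in 4.71% of replicate 2 only and 1.86% of replicate 1 only windows. Shared windows had 2.33% in replicate 2 and 2.2% in replicate 1, the members' flanks 1.03% and 0.589%, and TSS windows 6.44%. GTCACACT was in 2.53% and 1.37% in the same order, and in 4.81% of TSS windows. Its shares were 1.66% and 1.6% in shared windows and 0.69% and 0.393% in flanks. AGGAC, the core read by tramtrack, was at 8.15% of summits and 14.5% of flanks in the replicate 1 only set. In the replicate 2 only set it was at 13% (10.8 to 15.4) and 17.5% (15 to 20.2), and in TSS windows at 13%. Summit and flank windows belong to the same peaks, so the overlap of these separate intervals does not decide whether they differ. In shared peaks of replicate 1 AGGAC was at 7.97% of summits against 15.5% of flanks. GGTGGCGC was in 16 replicate 2 only windows (1.84%), 7 replicate 1 only windows (0.687%) and 0.446% of TSS windows. Among shared windows it was in 1.1% of those of replicate 1 and 1.09% of those of replicate 2.

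C-rich and GA-rich letters were in more windows of the replicate 1 only set than of the others, mainly among windows above 45% GC. CACCCC was in 156 of its windows (15.3%, 13.2 to 17.7), against 5.3% of its flanks, 6.78% of replicate 2 only windows, 6% of shared windows and 3.86% of TSS windows. CGAGAG was in 11.6% (flank 7.07%), against 5.06% of replicate 2 only, 4.54% of shared and 8.5% of TSS windows. GAGAGA, which overlaps it by most of its letters, was in 14.1% (flank 8.93%) against 10% and 11.3%, and in 9.73% of TSS windows. Above 45% GC, CACCCC was in 116 of 358 replicate 1 only windows (32.4%), 50 of 219 shared windows (22.8%) and 22 of 196 replicate 2 only windows (11.2%). Below that limit it was in 6.05%, 4.13% and 5.49%. CGAGAG was in 23.5%, 12.8% and 11.2% above the limit, in the same order, and in 5.14%, 3.62% and 3.26% below it. GAGAGA was in 23.7%, 16.4% and 8.16% above the limit, while below it the replicate 1 only set was lowest, with 8.93% against 10.7% of shared and 10.5% of replicate 2 only windows. AGGAC was in 23% (17.3 to 29.5) of the replicate 2 only windows above the limit, 7.54% of the replicate 1 only windows and 7.76% of the shared windows. Below it the shares were 10.1% (7.92 to 12.6), 8.47% (6.46 to 10.9) and 8% (6.84 to 9.29), with intervals that overlapped. The shared windows of this split are those of replicate 1, and flanks and TSS windows were not split by GC content.

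The motifs CACCCC and CGAGAG, as well as ACAGTG, GTCACACT and GGTGGCGC, were chosen after the sets were compared. ACAGTG was in 20% of replicate 2 only and 14.7% of replicate 1 only windows, and in 22% of shared and 9.72% of TSS windows. Of all 6-mers, taken with their reverse complements, those that differed most towards replicate 1 were CCCCTC (12.8% against 3.56%), ACCCCC (14.2% against 5.29%) and CACCCC. Towards replicate 2 they were TATCGA (7.95% against 17%), ACACTG (13.7% against 22%) and AGTGCA (14.1% against 22.3%). These were picked for their difference, so they are a description.

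The sets were unevenly placed on the small chromosomes and on X. Arm 4 held 11 replicate 1 only peaks and 0 replicate 2 only peaks, with 1 shared peak. None of the 11 had a replicate 2 summit within 150 bp, and none was in either list made from both replicates; the ranked lists held 228 peaks on this arm in replicate 1 and 48 in replicate 2. The strongest was in a 3' UTR where the annotated spans of Cals, a calsyntenin gene, and sv overlap, with a signal of 152. Others lay near zfh2, a homeodomain zinc-finger gene (106 and 59), and at the promoters of Sox102F (49.5 and 8.03) and fd102C, a forkhead gene (57.1). The pair of peaks at Sox102F overlapped each other. Chromosome Y held 5 replicate 2 only peaks and no other thresholded peak, all intergenic, with signals of 39.1 to 64.2, and the ranked lists held 28 and 460 peaks there. The sex of the embryos is not given in the labels.

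On X, the replicate 1 only set had 139 peaks (13.6%, 11.6 to 15.9, or 5.9 per Mb) and the replicate 2 only set 176 (20.2%, 17.6 to 23.1, or 7.48 per Mb), beside 19.9% and 20.1% of shared peaks. Without a counterpart, 18 of 275 replicate 1 only peaks (6.55%) and 13 of 100 replicate 2 only peaks (13%) were on X. On the other large arms the replicate 1 only set had 7.39 to 8.43 peaks per Mb and the replicate 2 only set 5.85 to 6.89.

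**Figure D5:**
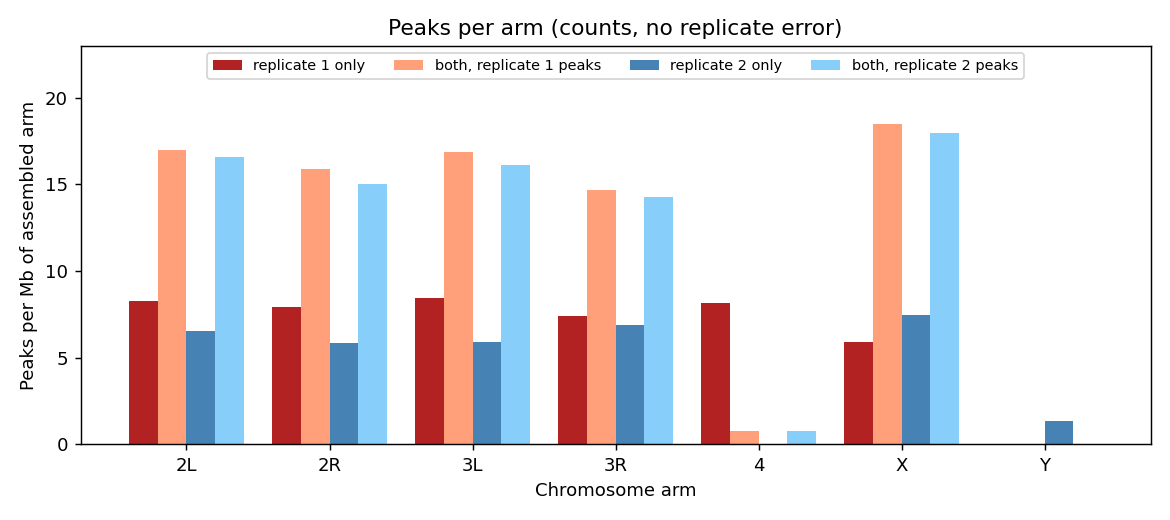
Peaks per Mb of assembled arm (vertical) on each chromosome arm (horizontal) for peaks thresholded in only 1 replicate and shared peaks, as single counts without error. Arm 4 has 8.16 replicate 1 only peaks per Mb and no replicate 2 only peak, and on X the replicate 1 only set falls to 5.9 per Mb.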

How the data were processed

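Peak lists from 2 ChIP-seq libraries, labelled biological replicates 1 and 2 of 1 group, were used as deposited, in dm6 coordinates per the labels, printed 1-based. The signal of each peak (column 7) and its score (column 5, 830 or more in the thresholded lists, up to 1000) are the authors' deposited values, while normalization, aligner, peak caller and read depth are not given in these sources. Each replicate had an IDR thresholded list (3203 and 3075 peaks) and a ranked list (91874 and 116688). A pair of thresholded lists over both replicates, a conservative and a larger one, were also used.

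Sets were formed by an overlap of 1 bp. Counterparts were the nearest ranked summit within 150 bp. Genes and TSSs came from the Ensembl annotation, without transposable elements, and bases from the NCBI genome of the same assembly. Shares have exact Clopper-Pearson 95% intervals for counting error. No test was made, because each set comes from 1 library. The overlap and nearest-summit steps were tested on simulated data. Named genes were the 15 strongest members of each set, the 10 strongest without a counterpart, the 5 with the highest signal in the other replicate, up to 3 promoter-bound genes of each of 15 lists, and members on 4 and Y. Members, lists and motifs were chosen with earlier results of these data known. Versions were matplotlib 3.10.9, scipy 1.17.1, pandas 2.3.3, numpy 2.4.6 and Python 3.11.15.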

Additional observations from a re-analysis of the deposited data

How the results depend on the processing

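Of 60 alternatives for results that answer a comparison, 46 moved a value by less than its interval, SD or 1.5 times. No value changed sign, but only the median log2 ratios could have done so. Of 154 others, for single motifs and gene lists, 53 moved a value further. These counts take each set by itself. Between the sets, the order of promoter share (39.3% and 36%) and of median GC (40.8% and 41.5%) turned among members without a counterpart. The share of replicate 1 only peaks with a counterpart was 44.8% with summits within 50 bp, 77.3% within 300 bp and 76.9% with any overlapping ranked peak; for the replicate 2 only set it was 58.6%, 91% and 90.7%. With promoters of 250 and 1000 bp, promoter shares were 27.9% and 51.1% in the replicate 1 only set, and 35.5% and 51.8% in the replicate 2 only set, which had 48.3% in its stronger part. On X, members without a counterpart made up 6.55% and 13%. A wider window holds more by construction; the cause of the other differences was not tested. Leaving out own signals under 20, which 64 replicate 1 only and 13 replicate 2 only peaks had, was chosen after seeing the data. With overlapping peaks of 1 list counted once, the replicate 1 only set had 951 peaks in place of 1019. No paired analysis was possible because there is 1 group, and leaving out a replicate was not run because each set needs both. With 2 libraries, unknown depth and no control, a peak absent from a list is not shown to be unbound.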
